A study of Mus musculus with 30 samples.

Results

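Enzymes of drug and xenobiotic metabolism were described as a group of 100 genes, of 13456 genes listed in any of the 7 deposited tables. Members were chosen by gene symbol alone: the cytochrome P450 (Cyp), alcohol dehydrogenase (Adh), aldehyde dehydrogenase (Aldh), carboxylesterase (Ces), UDP-glucuronosyltransferase (Ugt), sulfotransferase (Sult), soluble glutathione S-transferase (Gst) and microsomal glutathione S-transferase (Mgst) families, without Cyp51, Cyp21a1, Sult1a1, Ces1d, Aldh1a1, Aldh1a3 and Adh1. The study sequenced mRNA from mouse colon in 3 systems, with 3 libraries per group. Colon epithelium of C57BL/6J mice came from Smad4+ controls and from Smad4ΔLrig1 animals, a deletion named after Lrig1, a marker of crypt progenitor cells; ages and sexes were not given in the sources used here. Cultured colonocytes labelled IMCfl/fl Smad4+ were left untreated, given TNF, given TGFB1 with BMP2, or given all 3 ligands, at doses not given in the sources used here. Colonoids, which are crypt epithelium grown as miniature organs in culture, came from the lines L42, L43 and L46; each line received vehicle, TNF at 100 ng/mL, TGFB1 at 3 ng/mL with BMP2 at 10 ng/mL, or all 3 ligands at these doses.

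Drug metabolism is taught in phases. Phase I enzymes add or expose a reactive group: cytochrome P450s oxidise drugs, fatty acids and retinoids, carboxylesterases split esters and prodrugs, and alcohol and aldehyde dehydrogenases oxidise alcohols and the reactive aldehydes they yield. Phase II enzymes then attach a glucuronide, sulfate or glutathione so that transporters can carry the product out of the cell, and many of these genes are induced through the aryl hydrocarbon receptor, the pregnane X receptor or the oxidative stress factor NRF2. In the colon they stand between the bacterial and dietary contents and the tissue, and many are most abundant in maturing epithelial cells. SMAD4 is the shared transducer of TGFB and BMP signals, which are strongest towards the crypt surface, and TNF is a cytokine of inflamed mucosa.

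Values are counts of reads scaled to the size of the library (CPM) from the deposited tables. Smad4 itself read 132 to 152 CPM in control colon and 46.1 to 59.2 CPM in the knockout. Listed reads per library, in units of 1e+06, came to 23.2 to 28.6 in colon, 21.6 to 42.9 in colonocytes and 42.2 to 61.7 in colonoids. The labelled cell types were checked on marker lists: 9 of 9 general epithelial markers were listed in colon, summing to 14525 to 15635 CPM in controls, and 9 of 9 in colonoids. In the colonocyte table of TGFB1 with BMP2, 3 of 9 were listed, with a sum of 33.8 to 45.9 CPM in controls and Epcam, Cdh1, Cldn3, Cldn7, Elf3 and Esrp1 not listed, while 10 of 12 stromal and muscle markers summed to 7016 to 7480 CPM. The colonocyte libraries are therefore called by their label, and their values are not read as those of colon epithelium.

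The makeup of the group differed by system. Colon epithelium listed 84 members, colonoids 85 and colonocytes 53. Of the members, 40 were listed in all 3 systems, 37 in colon and colonoids but not colonocytes, and 8 in colonocytes alone. Whole tables were of similar size, with 11608 genes in colon, 11573 to 11628 in colonocytes and 11613 to 11688 in colonoids. How all genes were shared between systems is not given here, so the overlaps have no background. Carboxylesterases (9 members) were all listed in colon and in colonoids and 3 of them in colonocytes. Of 21 members of P450 families 1 to 3, which oxidise most drugs, 17 were listed in colon, 17 in colonoids and 6 in colonocytes. A gene that is not listed was below the filter the authors applied, so these counts describe tables, not absence.

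Levels between genes were compared per kilobase of exon. In control colon the highest was Cyp2c55, a P450 of the large intestine that oxidises arachidonic acid, at 502 ± 58.7 CPM per kilobase (SD, n = 3). Mgst3, a membrane glutathione transferase, followed at 395 ± 39.5, and Gsto1, which reduces dehydroascorbate with glutathione, at 278 ± 17.1. Sult1d1, a catecholamine sulfotransferase in mouse, at 238 ± 40.9 and Aldh1b1, a mitochondrial aldehyde dehydrogenase, at 233 ± 13.8 did not differ beyond their spread. Vehicle colonoids ranked Gsto1 at 206 ± 24.7 CPM per kilobase, Cyp2c55 at 176 ± 83.1, Gsta4 at 147 ± 13.7, Gstp1 at 143 ± 12 and Mgst3 at 136 ± 4.07. Gsta4 conjugates the lipid peroxidation product hydroxynonenal. The wide spread of Cyp2c55 came from the lines, and the neighbours Gsta4, Gstp1 and Mgst3 overlapped. Untreated colonocytes were led by 2 carboxylesterases, Ces2e at 115 ± 10.1 and Ces2g at 96.1 ± 2.21 CPM per kilobase, then Gstm2 at 59.7 ± 3.46 and Cyp1b1 at 51.3 ± 12.5. Cyp1b1, a hydroxylase of estradiol and polycyclic hydrocarbons, is known from stromal cells and as a target of the aryl hydrocarbon receptor. Near-identical copies within the Ces1, Ces2, Cyp2c, Cyp2d, Gstm and Gstp clusters can trade reads, and the Ugt1a genes share their last exons, so single values in those clusters are uncertain.

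The comparison of Smad4 knockout with control colon asked what the enzymes do when SMAD4 is lost from the epithelium. Most enzymes that moved were lower: of 83 members tested, 39 fell and 6 rose (limma on log2(CPM + 1), adjusted p under 0.05). These are 47% and 7.23% of the members, against 19.9% of all genes tested that fell and 19.8% that rose, 39.7% in either direction. The members' median log2 change was -0.34 and that of all genes 0.00. Among the falls, 15 of 39 were by at least 1 on the log2 scale, as were 13.1% of all genes called lower. Fewer cells of a type and less RNA per cell cannot be told apart in bulk tissue.

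Of 17 P450s of families 1 to 3 tested, 4 fell and 2 rose, beside 19.9% of all genes that fell and 19.8% that rose. The share of these P450s that fell was thus close to that of all genes. Of 6 of family 4, whose members mostly hydroxylate fatty acids, 3 fell. Cyp2c55 read 883, 1006 and 1117 CPM in controls and 224, 157 and 702 CPM in knockouts. The groups did not overlap, and knockout replicate 3 lay closer to the controls than to the other two. The log2 change was -1.77 ± 0.42 (SE, n = 3 per group, limma adjusted p = 0.00869). Cyp4b1, a fatty acid and xenobiotic hydroxylase, was low throughout, at 3.46, 5.47 and 5.36 CPM in controls, and came to 0.0838, 0.0808 and 0.367 CPM in knockouts, which are a few reads each. That is 3.72% of the control mean, and its log2 change of -2.28 ± 0.19 (limma adjusted p = 9.43e-05) was the largest fall among the members. Cyp2c65, a close relative of Cyp2c55, showed the same single high library, at 113, 128 and 288 CPM against 271, 252 and 282 CPM in controls, and did not pass the test (limma adjusted p = 0.0602). Replicate 3 was the highest of the knockout libraries for 26 of the 39 members that fell, 66.7%, and for 46.3% of all genes called lower.

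Of 9 carboxylesterases tested, 6 fell and 2 rose. Ces1g read 111, 64.8 and 65.7 CPM in controls and 16.4, 16.4 and 41.2 CPM in knockouts, a log2 change of -1.76 ± 0.33 (limma adjusted p = 0.00272). Ces2a, Ces2b, Ces2c, Ces1f and Ces1e fell as well, to between 34.8% and 70.9% of control. Within the Ces2 cluster, which also holds Ces2a, Ces2b and Ces2c, Ces2f and Ces2g rose. Ces2f moved from 0.277, 0.85 and 0.566 CPM to 3.23, 5.41 and 3.63 CPM, a log2 change of 1.69 ± 0.21 (limma adjusted p = 0.000411). Ces2g rose from 16.7, 14.7 and 14.3 CPM to 26.7, 42.5 and 30.9 CPM, with no overlap of the groups. Members of a single esterase family thus moved in opposite directions in the same libraries.

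Falls also reached alcohol and aldehyde dehydrogenases. Adh5, which clears formaldehyde and S-nitrosoglutathione, read 143, 151 and 152 CPM in controls and 58, 65.2 and 81.8 CPM in knockouts, a log2 change of -1.12 ± 0.13 (limma adjusted p = 0.000275). Aldh1b1 fell from 510, 570 and 523 CPM to 289, 253 and 260 CPM, 50% of control. Of 15 aldehyde dehydrogenases tested, 5 fell and 0 rose; 10 were not called. Besides Aldh1b1 these were Aldh2, Aldh3b1, Aldh4a1 and Aldh16a1, with log2 changes from -1.15 to -0.31. The exons of Aldh16a1 overlap those of Pih1d1 on the other strand.

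Conjugating enzymes fell in every family but not in every member. Of 7 glucuronosyltransferases tested, 5 fell: Ugt2b5 read 42.2, 65.8 and 70.9 CPM in controls and 7.75, 11.1 and 22.9 CPM in knockouts, and the bilirubin enzyme Ugt1a1 came to 38% of control. Of 4 sulfotransferases 3 fell. Sult1d1 went from 486, 582 and 687 CPM to 178, 245 and 356 CPM, a log2 change of -1.21 ± 0.22 (limma adjusted p = 0.00239), and Sult1c2 to 41.3% of control. Among 18 soluble glutathione transferases 8 fell and 2 rose. Gsta3, which in mouse conjugates the aflatoxin epoxide, rose from 14.5, 13.3 and 14.4 CPM to 41.3, 48.3 and 55.4 CPM, a log2 change of 1.70 ± 0.13 (limma adjusted p = 6.33e-05). Mgst3 fell from 396, 481 and 422 CPM to 171, 144 and 231 CPM, while Mgst1 read 234, 304 and 336 CPM in controls and 209, 247 and 350 CPM in knockouts and was not called. Gsto1 was not called either, at 524 to 592 CPM in controls and 509 to 615 CPM in knockouts. The smaller rises of Gstm6, Cyp2c68 and Cyp2d13 were lost in 4, 3 and 4 of the 6 fits that left out 1 library, with adjusted p up to 0.123, 0.0978 and 0.136.

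**Figure D1:**
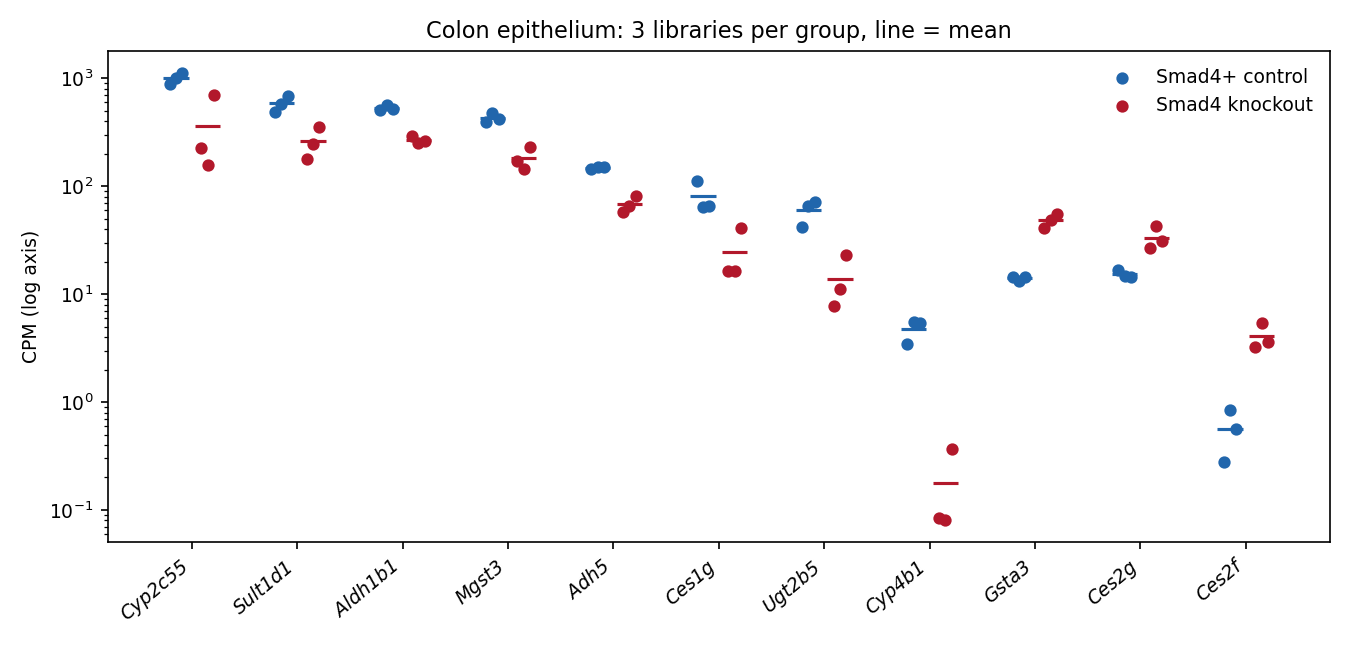
CPM on a log axis of 11 enzyme genes in colon epithelium, with 3 Smad4+ control libraries and 3 Smad4 knockout libraries as points and the group mean as a line. Cyp4b1 sits at 3.72% of control and Gsta3 at 344%, and knockout replicate 3 is the nearest to the controls for Cyp2c55.

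Genes that work beside these enzymes moved both ways in the knockout. Of 24 phase I partner enzymes tested, 10 fell and 5 rose; the flavin monooxygenase Fmo5 averaged 46.5 CPM in controls and 15.6 CPM in knockouts, and the carbonyl reductase Cbr3 22.4 and 38.6 CPM. Of 15 conjugation partner genes 3 rose, namely the glutathione synthesis and recycling genes Gclc, Gclm and Gsr (189 to 270 CPM), and 5 fell, among them Papss2 (957 to 509 CPM) and Ugdh (641 to 399 CPM), which make the sulfate and glucuronide donors. The drug efflux pumps Abcg2, Abcb1a and Abcc3 fell and Abcc4 rose, of 8 tested. NRF2 response genes rose in 7 and fell in 4 of 16, with the cystine carrier Slc7a11 at 2.2 and 12.7 CPM. Among 23 sensors and regulators 4 rose, including Ahr, the aryl hydrocarbon receptor, at 18.9 and 28.7 CPM, and 8 fell, including Nr1i2, the pregnane X receptor, at 76.7 and 61.8 CPM, and Cdx2, the intestinal master factor, at 436 and 277 CPM. Cell markers moved as well. Of 17 absorptive colonocyte markers 11 fell and 2 rose, their sum going from 17005 to 18661 CPM in controls to 10985 to 15672 CPM in knockouts. Of 11 goblet cell markers 8 fell and 1 rose. Stem and progenitor markers rose in 3 and fell in 3 of 9. General epithelial markers rose in 2 and fell in 2 of 9, and their sum went from 14525 to 15635 CPM to 11045 to 13527 CPM. Their part in the enzyme changes was not tested. Stromal markers were near the limit of listing, with 2 of 12 listed and 10 not listed, Col1a1, Dcn and Acta2 among them.

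In colonoids, TGFB1 with BMP2 lowered most of the enzymes. Of 81 members tested, 50 fell and 5 rose against vehicle, 61.7% and 6.17%, beside 28.7% of all genes that fell, 28% that rose and 56.7% called in either direction. The members' median log2 change was -0.98, and that of all genes -0.02. Scaling the colonoid libraries by their plain totals moves the median of all genes by -0.26 in this comparison and by -0.24 in the presence of TNF. Changes are therefore relative to the scaling of the authors. With plain totals 4 members rose and 55 fell, and with TNF present 3 rose and 58 fell. The shares of all genes called under plain totals are not given here, and the shift of all genes enters these counts.

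Glutathione transferases were among the members that fell most on the log2(CPM + 1) scale. Mgst1, a membrane glutathione transferase and peroxidase, read 78.5, 84.3 and 85.1 CPM in vehicle cultures of L42, L43 and L46 and 7.27, 2.78 and 21.3 CPM with TGFB1 and BMP2. All 3 lines were lower, L43 most and L46 least, and the log2 change was -3.24 ± 0.58 (SE, n = 3 per group, limma adjusted p = 0.00529). Gstm1 followed the same order over the lines, from 144, 194 and 150 CPM to 15.5, 11.6 and 44.6 CPM, a log2 change of -2.94 ± 0.46 (limma adjusted p = 0.00351). Gsta3 fell from 80.2, 117 and 105 CPM to 12.3, 5.81 and 36.4 CPM. In all, 13 of 18 soluble transferases fell and 0 rose. Gsto1, the highest per kilobase, stayed at 372 to 471 CPM against 380 to 462 CPM, and Gsta4 read 175 to 207 CPM and 151 to 206 CPM. L46 had the smallest fall for 41 of the 50 members that fell, 82%, and for 90.5% of all genes that fell, and L43 the largest for 34, 68%, against 67.7% of all genes.

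Promoters of 3 called members that hold its core are shown because NRF2, a regulator of many glutathione transferases, acts through an antioxidant response element with the core TGACNNNGC. RefSeq (GRCm38.p6) gives promoters, from 250 bases before to 50 after the start, for 81 of the 100 members. On either strand the core letters stood in 12.4% of all 32851 promoters and in 11 of 98 promoters of members, 11.2%. By gene, 7 of 44 members that fell in colonoids held it, against 14% of all genes with a promoter. The core is in capitals in Gsta3 (chr1:21240335-21240634, plus strand) and Mgst1 (chr6:138140277-138140576, plus strand), which fell, and in Cyp2j6 (chr4:96553602-96553901, minus strand), which rose. In Cyp26a1 (chr19:37697558-37697857, plus strand), described under colonocytes, the capitals mark a direct repeat of AGTTCA on the opposite strand, the kind of element through which retinoic acid receptors act. Capitals may mark either strand.
Gsta3: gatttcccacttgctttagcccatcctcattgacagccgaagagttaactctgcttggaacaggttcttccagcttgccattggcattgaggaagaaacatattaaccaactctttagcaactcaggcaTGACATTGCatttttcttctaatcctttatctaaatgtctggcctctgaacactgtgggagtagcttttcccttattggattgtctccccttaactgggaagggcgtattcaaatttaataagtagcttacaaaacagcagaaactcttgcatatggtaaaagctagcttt
Mgst1: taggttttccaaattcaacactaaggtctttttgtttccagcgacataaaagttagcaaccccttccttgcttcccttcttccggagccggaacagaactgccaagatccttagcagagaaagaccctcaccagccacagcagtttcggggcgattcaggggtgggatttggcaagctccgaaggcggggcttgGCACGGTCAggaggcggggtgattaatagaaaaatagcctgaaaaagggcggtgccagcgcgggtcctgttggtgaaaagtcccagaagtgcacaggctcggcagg
Cyp2j6: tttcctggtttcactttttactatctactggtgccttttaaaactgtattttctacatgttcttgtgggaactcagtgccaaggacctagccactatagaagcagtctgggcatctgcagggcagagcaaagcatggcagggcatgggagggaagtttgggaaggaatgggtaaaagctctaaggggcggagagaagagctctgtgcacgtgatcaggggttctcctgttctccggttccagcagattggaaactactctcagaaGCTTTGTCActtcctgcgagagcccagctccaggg
Cyp26a1: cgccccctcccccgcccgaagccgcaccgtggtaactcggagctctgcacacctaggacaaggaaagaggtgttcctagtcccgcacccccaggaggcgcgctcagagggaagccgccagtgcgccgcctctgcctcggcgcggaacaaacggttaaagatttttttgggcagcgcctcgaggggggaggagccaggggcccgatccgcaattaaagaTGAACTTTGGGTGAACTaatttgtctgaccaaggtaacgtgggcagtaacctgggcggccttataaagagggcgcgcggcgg
The promoters printed for the antioxidant core were chosen because they hold it, so the directions of these members say nothing about its part. That part was not tested. In Cyp2j6 the match lies after the start. The core GCGTG of aryl hydrocarbon receptor elements stood in 32.4% of all promoters and 30.6% of the members'; it was found for both Cyp1a1 and Cyp1b1. The letters GTTAAT, part of the site of the epithelial factor HNF1, were found for 8 of 44 members that fell, 1 of 25 that were tested and did not fall, and 8.24% of all genes. The same split was 7 of 44 and 2 of 25 for the antioxidant core, and 13 of 44 and 10 of 25 for GCGTG. For CAAAGTCC, a core of the factor HNF4, it was 1 of 44 and 2 of 25. The splits thus went both ways and were not tested. A match describes letters, not a bound site.

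Phase I enzymes fell in most families. Ces1f went from 17.9, 32.2 and 22.3 CPM to 1.28, 1.9 and 2.04 CPM, 7.19% of vehicle, with a log2 change of -3.17 ± 0.24 (limma adjusted p = 0.0011). Of 7 carboxylesterases tested 6 fell, Ces2g among them at 11.1, 15.7 and 10.3 CPM in vehicle and 1.72, 3.62 and 4.04 CPM with the ligands. Of 16 members of P450 families 1 to 3, 10 fell and 2 rose. Cyp2d26, of a subfamily that oxidises many basic drugs, went from 111, 159 and 84.8 CPM to 20.7, 31.9 and 17.7 CPM, with no overlap. Cyp2c55 read 420, 470 and 161 CPM in vehicle and 122, 163 and 50.9 CPM with the ligands. The groups overlapped because L46 was low in both, yet each line fell, by 1.77, 1.52 and 1.64 on the log2 scale. Its limma adjusted p was 0.0381, and 0.00463 with the line as a block. The call was lost in 4 of 6 fits without 1 library, with adjusted p up to 0.121. Aldh1b1 fell to 23.1% of vehicle and Adh6a to 5.64%.

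Among the conjugating enzymes, 5 of 5 glucuronosyltransferases fell, with Ugt2b35 going from 13.9, 26.1 and 6.34 CPM to 0.565, 0.556 and 1.39 CPM. Ugt1a7c came to 28.5% of vehicle. Sult1c2 fell from 21.9, 19.3 and 10.7 CPM to 1.28, 0.613 and 1.69 CPM, a log2 change of -3.03 ± 0.31 (limma adjusted p = 0.00147). It was the 1 of 5 sulfotransferases called. Sult1d1 and Sult1b1 overlapped between the groups.

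The 5 members that rose with TGFB1 and BMP2 came from 3 families. Cyp1b1 went from 14.6, 5.51 and 8.11 CPM to 76, 43.2 and 33.9 CPM, a log2 change of 2.34 ± 0.40 (limma adjusted p = 0.00452), while Cyp1a1, another classical target of the aryl hydrocarbon receptor in the group, fell from 2.13, 4.5 and 1.56 CPM to 0.295, 0.364 and 0.389 CPM. Aldh3b2, which oxidises lipid aldehydes, rose from 3.77, 3.24 and 2.82 CPM to 25.3, 85.4 and 10.8 CPM; the groups did not overlap and the lines differed widely. Mgst3 rose from 144, 150 and 153 CPM to 373, 414 and 240 CPM, a log2 change of 1.16 ± 0.20 (limma adjusted p = 0.00475). The rise of Cyp2j6, of an epoxygenase subfamily, was to 191% of vehicle. Aldh1l1, a folate enzyme, reached 225% with overlapping groups, and lost its call in 4 of the 6 fits without 1 library (limma adjusted p up to 0.123).

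**Figure D2:**
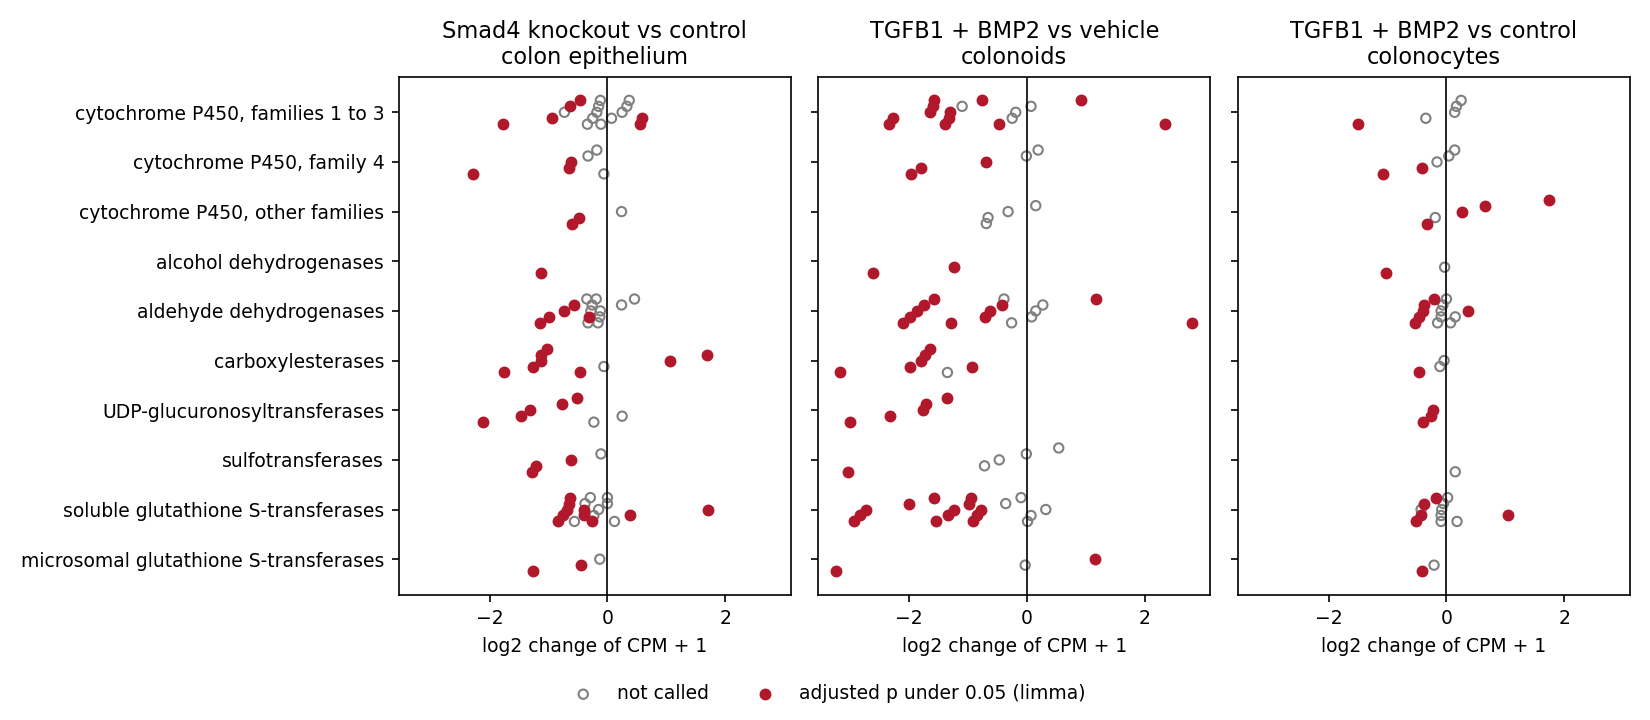
Each point is 1 enzyme gene, placed by family and by its log2 change of CPM + 1 in 3 comparisons, with genes past an adjusted p of 0.05 (limma) filled. Medians were -0.34 in the knockout colon, -0.98 in colonoids and -0.11 in colonocytes, and all 5 glucuronosyltransferases tested in colonoids lie left of 0.

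Partner genes in colonoids did not follow the enzymes as a body. Of 16 NRF2 response genes, 7 rose and 1 fell, with Hmox1 at 27.7 CPM in vehicle and 76.1 CPM with the ligands, Me1 at 71.6 and 180 CPM and Slc7a11 at 93.8 and 158 CPM. Phase I partners fell in 7 and rose in 6 of 21: the epoxide hydrolase Ephx1 read 110 and 28.6 CPM, Maoa, which degrades amines, 566 and 187 CPM, and Por, which feeds electrons to P450s, 268 and 467 CPM. Of 22 sensors and regulators 9 rose, including Ahr (23.1 to 40.9 CPM), and 5 fell, including the vitamin D receptor Vdr (196 to 45.5 CPM). Among 10 efflux pumps 1 rose, Abcb1a (268 to 455 CPM), and 2 fell, Abcc2 (2.95 to 1.02 CPM) and Abcc6 (1.93 to 0.303 CPM). Goblet cell markers fell in 9 of 10, their sum going from 912 to 1595 CPM in vehicle to 235 to 303 CPM, with Agr2 at 349 and 11.7 CPM. General epithelial markers rose in 8 of 9, from a sum of 9755 to 11996 CPM to 25856 to 32974 CPM, and absorptive markers rose in 5 and fell in 2 of 15. Stem and progenitor markers rose in 4 and fell in 4 of 9, with Lgr5 at 154 and 18.4 CPM. The part of these cell markers in the enzyme changes was not tested.

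**Figure D3:**
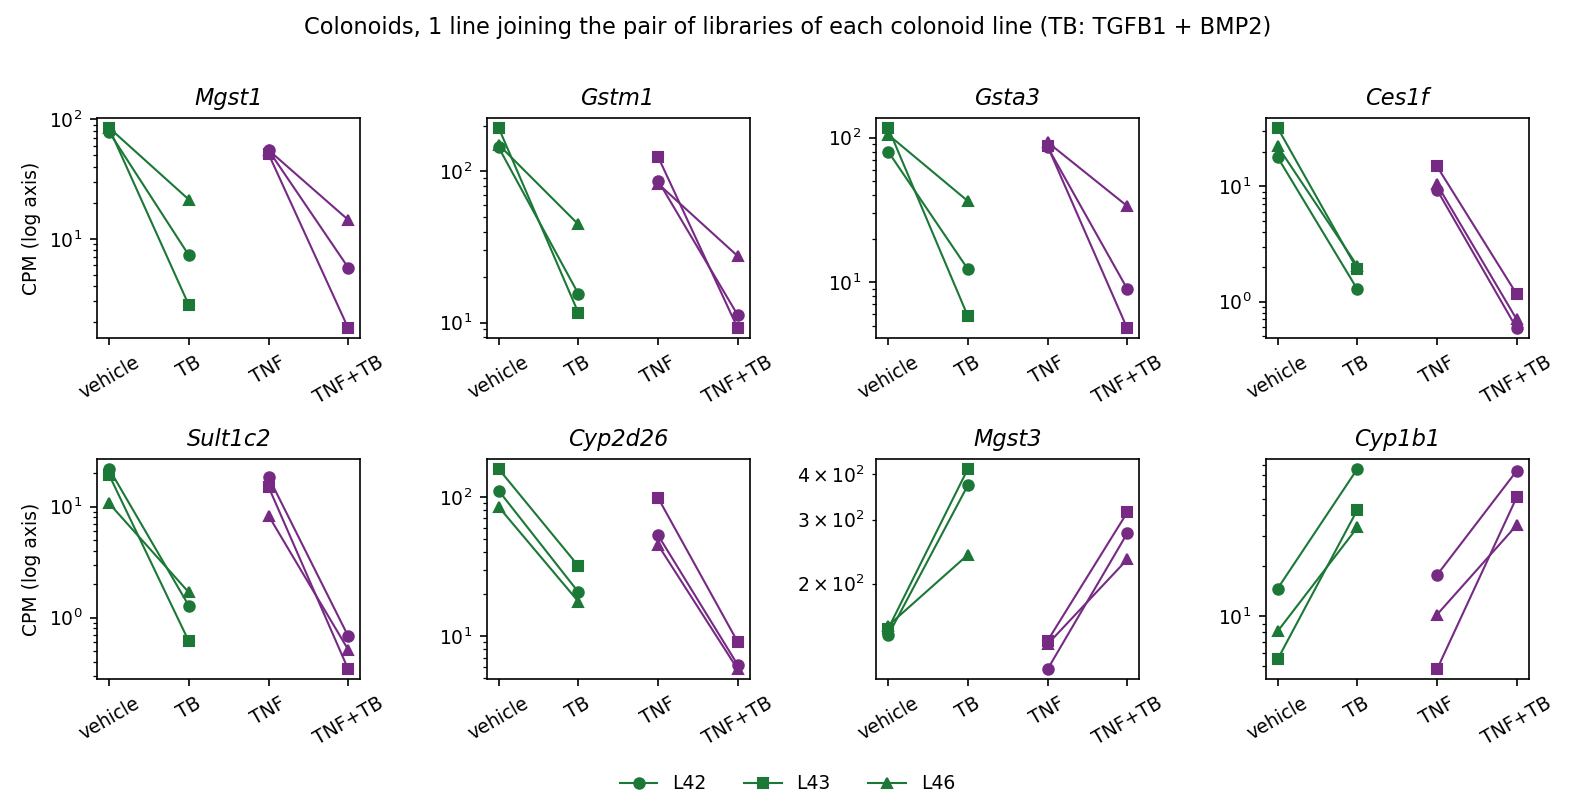
CPM on a log axis of 8 enzyme genes in colonoid lines L42, L43 and L46, each line joining the vehicle and TGFB1 with BMP2 libraries (TB, green) or the TNF and TNF with TGFB1 and BMP2 libraries (purple) of 1 colonoid line. Mgst1 fell from 78.5 to 85.1 CPM to at most 21.3 CPM, and Mgst3 and Cyp1b1 went up in every line.

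Knockout colon and ligand-treated colonoids share no libraries, and 74 members were tested in both. Of the 74, 38 were called in the knockout and 51 in colonoids. Called in both were 24, which are 63.2% and 47.1% of these, and overlap beyond what such shares give was not tested. Of the 24, 19 fell in both, 0 rose in both and 5 moved in opposite directions. Among all genes called in both, 779 fell in both, 803 rose in both and 924, 36.9%, moved oppositely. The members that fell in both include Cyp2c55, Ces1f, Ces1g, Aldh1b1, Adh5, Sult1c2, Ugt1a1 and Ugt2b35. Mgst3 fell in the knockout and rose with the ligands. Gsta3, Ces2g, Cyp2c68 and Gstm6 rose in the knockout and fell with the ligands. The difference between the 2 comparisons was not tested. Across the 74 members Pearson's r of the log2 changes was -0.05, a description over genes that share libraries within each comparison.

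**Figure D4:**
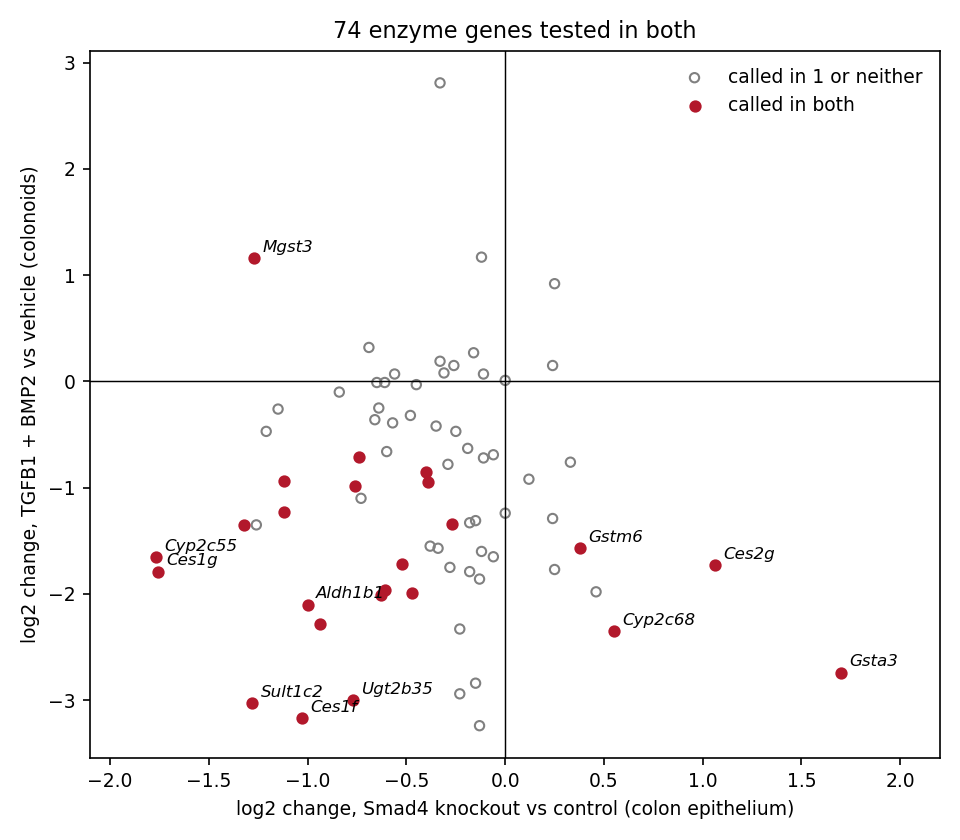
Each point is 1 of 74 enzyme genes, with the log2 change in Smad4 knockout colon on the x axis and that in colonoids given TGFB1 with BMP2 on the y axis; filled points passed the test in both. Among filled points, the 19 that fell in both lie at the lower left, Mgst3 at the upper left, and Gsta3, Ces2g, Cyp2c68 and Gstm6 at the lower right.

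With TNF in all colonoid cultures, TGFB1 with BMP2 again lowered most enzymes: 46 of 79 members fell and 4 rose, 58.2% and 5.06%, beside 27.7% and 26.4% of all genes and 54.1% in either direction, with a median log2 change of -1.15. Sult1c2 went from 18.5, 15.1 and 8.31 CPM with TNF to 0.681, 0.343 and 0.515 CPM with all 3 ligands, a log2 change of -3.25 ± 0.29 (limma adjusted p = 0.00134). Mgst1 went from 55.2, 51.4 and 55.4 CPM to 5.73, 1.78 and 14.4 CPM. The comparisons with and without TNF use different libraries of the same lines: 48 of 78 members tested in both were called in both, 44 of them lower and 4 higher, and 0 moved oppositely. Among all genes 5691 of 11512 were called in both, 2865 lower, 2826 higher and 0 oppositely. The 4 that rose in both were Aldh1l1, Cyp1b1, Cyp2j6 and Mgst3. Tested as an interaction over 12 libraries, 0 of 78 members were called by limma, with 1 at an unadjusted p under 0.05, against 0% and 0.701% of all genes. Interaction terms ranged from -1.43 to 0.41 on the log2 scale with a median SE of 0.38, which limits what was detectable.

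Given to colonoids by itself, TNF lowered enzymes by small steps that recurred in each line. Against vehicle, 1 of 85 members was called without regard to line, beside 0.137% of all genes, 0.12% higher and 0.0171% lower. This was Mgst1, which read 86.9, 91.8 and 93.3 CPM in vehicle and 60.6, 56.4 and 60.9 CPM with TNF, a log2 change of -0.61 ± 0.07 (limma adjusted p = 0.0339). The call was lost in each of the 6 fits without 1 library, with adjusted p up to 0.232. Because each line supplied both libraries, the line was also fitted as a replicate block: then 33 of 85 members were called, 32 lower and 1 higher (limma adjusted p under 0.05). That is 37.6% lower, beside 2.39% of all genes called lower, 3.76% higher and 6.14% in either direction with the block. In the authors' deposited table, 3 members had a false discovery rate under 0.05, beside 0.753% of genes. By sign alone, 60 members were lower in all 3 lines and 6 higher in all 3, beside 18.5% and 18% of all genes. Among the 32 called lower with the block, Ces1f, at 47.9% of vehicle, had the largest log2 change and Ugt1a7c, at 86.1%, the smallest.

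With the line as a block, 7 of 9 carboxylesterases, 9 of 17 P450s of families 1 to 3 and 2 of 6 of family 4 were lower. Ces1f fell by 0.89, 1.05 and 1.04 in L42, L43 and L46, from 19.8, 35.1 and 24.5 CPM to 10.2, 16.4 and 11.4 CPM, with a limma adjusted p of 7.88e-05 with the block and 0.455 without. Cyp2c55 went from 465, 512 and 177 CPM to 305, 355 and 99.2 CPM, falling by 0.60, 0.53 and 0.83 in the lines while the groups overlapped (limma adjusted p = 0.000396 with the block and 1 without). Gstm1 fell from 159, 211 and 164 CPM to 95.3, 136 and 91.1 CPM with no overlap. The single rise was Sult2b1, which sulfates cholesterol, from 17, 16.6 and 14.4 CPM to 20.1, 24.5 and 22.3 CPM; its exons overlap those of Lmtk3 on the other strand. The absorptive markers, 16 listed, summed to 4643 to 5734 CPM in vehicle and 4441 to 5150 CPM with TNF, and the 10 goblet markers listed had a median log2 change of -0.33. Their part in the enzyme changes was not tested.

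**Figure D5:**
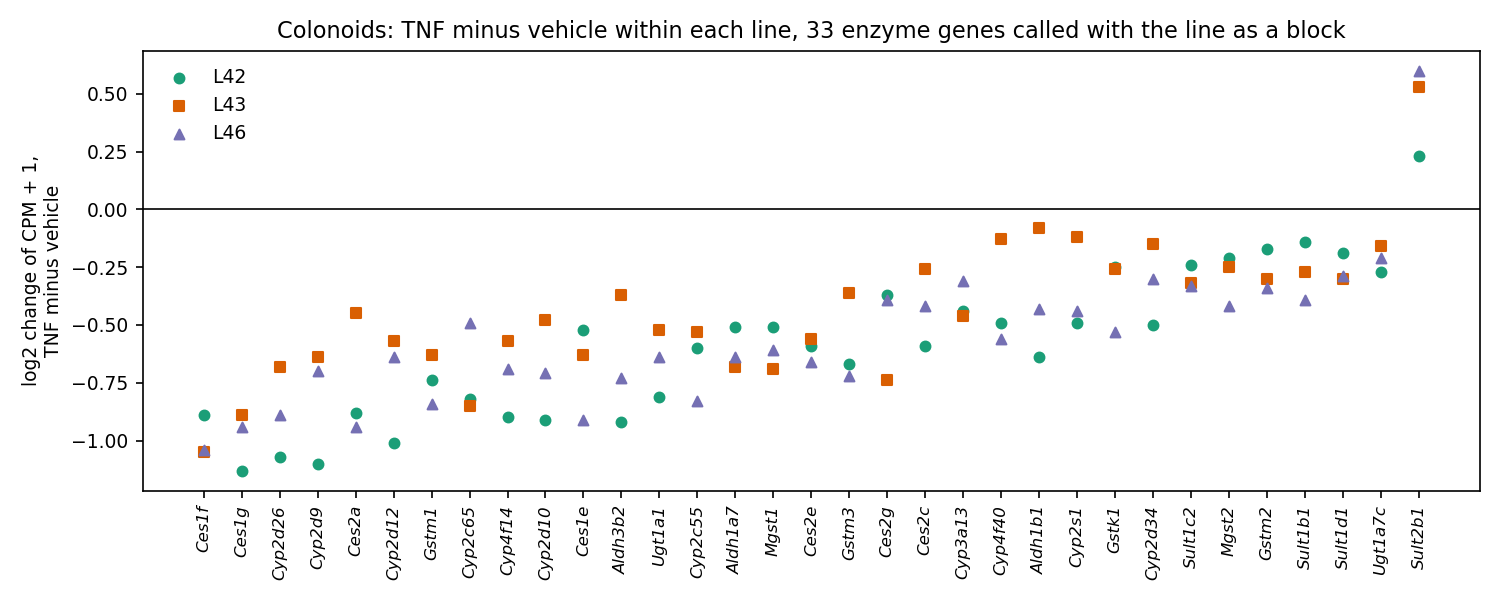
Log2 change of CPM + 1, TNF minus vehicle, within lines L42, L43 and L46 for the 33 enzyme genes called with the line as a block. All 32 lower genes lie below 0 in every line, from Ces1f to Ugt1a7c, and Sult2b1 lies above 0 in every line.

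In colonocytes TGFB1 with BMP2 lowered more enzymes than it raised. Of 51 members tested, 19 fell and 5 rose, 37.3% and 9.8%, beside 14.3% and 15.9% of all genes and 30.2% in either direction. The median log2 change was -0.11, and that of all genes 0.00. Cyp2s1, a P450 of tissues outside the liver, fell from 43, 48 and 28.1 CPM to 15.5, 14 and 10.3 CPM, 33.4% of control (limma adjusted p = 1.68e-05). Adh7, which oxidises retinol and ethanol, went from 2.57, 3.05 and 3.32 CPM to 0.989, 0.707 and 1.16 CPM, 31.9% of control. Cyp4f39 came to 30.4% of control. Among the remaining falls the largest log2 change was -0.53, that of Aldh4a1.

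The 5 members that rose were Cyp26a1, Cyp26b1, Gsto1, Aldh18a1 and Cyp20a1. Cyp26a1, which degrades retinoic acid, read 0.154, 0.14 and 0.179 CPM in controls and 3.57, 3.03 and 2.15 CPM with the ligands, a log2 change of 1.74 ± 0.16 on the log2(CPM + 1) scale (limma adjusted p = 2.18e-06). On the linear scale the mean was 18.5 times that of controls. Its promoter holds the direct repeat printed above, and those exact letters occur in 8 of 32851 promoters. Other spellings of the element were not searched, and its part in the rise was not tested. Cyp26b1, of the same function, rose from 1.49, 1.7 and 0.762 CPM to 2.48, 3.71 and 1.82 CPM. No repeat in those exact letters was found for Cyp26b1, and its call was lost in 3 of 6 fits without 1 library (limma adjusted p up to 0.128). Gsto1 rose to 208% of control, from 90, 84.6 and 91.6 CPM to 178, 188 and 188 CPM (log2 change 1.05 ± 0.05, limma adjusted p = 6.94e-09). Aldh18a1, which makes the precursor of proline, rose from 140, 134 and 138 CPM to 179, 176 and 176 CPM, and Aldh4a1, which acts in proline breakdown, fell from 39.4, 44 and 39.7 CPM to 27.1, 28.6 and 28.6 CPM.

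With TNF present 16 of 49 members fell and 6 rose in colonocytes, 32.7% and 12.2%, beside 15.6% and 16.4% of all genes and 31.9% in either direction. Of 49 members tested in both ligand comparisons, 17 were called in both, 12 lower and 5 higher in each. Among all genes 2733 of 11497 were called in both, 1212 lower, 1520 higher and 1 oppositely. The 5 members higher in both were Aldh18a1, Cyp20a1, Cyp26a1, Cyp26b1 and Gsto1. Cyp26a1 read 0.245, 0.156 and 0.0771 CPM with TNF and 3.36, 3.41 and 2.38 CPM with all 3 ligands. No interaction was called among 47 members by limma, with 3 at an unadjusted p under 0.05, 6.38% beside 3.11% of all genes; 0.0175% of all genes were called. TNF against control called 1 of 50 members, beside 6.28% of all genes, 4.61% higher and 1.67% lower: Aldh4a1 fell from 40.1, 44.8 and 40.5 CPM to 32.9, 33.7 and 32.7 CPM (limma adjusted p = 0.0096). Without control replicate 2 or TNF replicate 1 its adjusted p was 0.0619 or 0.0525. With the replicate number as a block, 4 members were higher and 4 lower, beside 11.5% and 8.8% of all genes and 20.3% in either direction; Cyp4f39 and Cyp1b1 were among the higher. The authors' deposited table gave 2 members a false discovery rate under 0.05, beside 8.81% of genes.

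Partner genes in colonocytes given TGFB1 with BMP2 included Ugdh, maker of the glucuronide donor, which averaged 157 CPM in controls and 337 CPM with the ligands, and Papss2 at 109 and 182 CPM. Of 8 efflux pumps 5 fell, led by Abcc5 at 302 and 195 CPM. Of 17 phase I partners 7 fell, with Xdh at 68.5 and 35.6 CPM. Nfe2l2, which encodes NRF2, read 164 and 118 CPM, and 4 of 16 NRF2 response genes fell and 1 rose. Vdr rose from 14.8 to 45.5 CPM. Cell markers moved as well. Of 10 stem and progenitor markers, Lgr5, Ascl2, Smoc2 and Olfm4 were not listed. Among the 6 listed, 5 rose and 1 fell, with Cd44 at 380 and 581 CPM. Of 10 stromal and muscle markers 3 rose and 2 fell, with Col1a1 at 2119 and 2905 CPM and Col3a1 at 1167 and 829 CPM. Their part in the enzyme changes was not tested.

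Between colonocytes and colonoids 41 members were tested for TGFB1 with BMP2 in both systems. Of these, 12 were called in both: 11 fell in both, among them Mgst1, Gstm1, Gsta3, Gstp1, Aldh4a1 and Ugt1a7c, and Aldh18a1 moved oppositely. Among all genes 1793 of 10336 were called in both, of which 403 fell in both, 797 rose in both and 593, 33.1%, moved oppositely. Of the 41, 18 were called in colonocytes and 26 in colonoids, and the 12 members are 66.7% and 46.2% of these. Overlap beyond what such shares give was not tested. Sizes differed: Mgst1 came to 74.5% of control in colonocytes and to 12.6% of vehicle in colonoids. The difference in size was not tested.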

How the data were processed

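Expression was measured by stranded poly(A) RNA-seq. The authors deposited read counts scaled to library size (CPM) as signal values, normalized within each of 7 tables, beside log2 fold changes and p-values with false discovery rates of their own. The submitters' processing notes name TopHat2 2.1.0, HTSeq 0.5.4p5, edgeR 3.4.2 and the mm10 genome, without their roles; the strand setting of the counting was not given in the sources used here. A library has slightly different values in each table, so tests stay within a table. Depth was taken from the smallest steps of the deposited values; 100% of values lay within 0.05 of a whole read.

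Genes averaging 1 CPM or more over the 6 libraries were tested by limma 3.58.1 (R 4.3.3) with a mean trend on log2(CPM + 1), 3 libraries against 3 and no block, with Benjamini-Hochberg adjustment over all genes of the table; called means adjusted p under 0.05. Fold changes on this scale understate those of low genes. Interactions were fitted over the 12 libraries of a system, after scaling by a trimmed mean of log ratios. Same-numbered libraries were checked for pairing by the correlation of their deviations. Colonoid lines pair by label (0.28 to 0.89). Colonocyte numbers gave 0.27 to 0.52 for TNF against control and 0.16 to 0.41 for the ligands added to TNF. For TGFB1 with BMP2 against control they gave 0.05 to 0.25. Different-numbered colonocyte libraries reached 0.22, 0.22 and 0.23 in these comparisons, so pairing by number is unsettled there. In colon, same numbers gave -0.01 to 0.12 and different numbers up to 0.45. The design calls the replicates biological; nothing states that colonocyte replicates were separate cultures, and p-values there may measure technical spread only. Lengths and overlaps came from GENCODE M21, which held 99 of 100 members. Genes were named by size of called change, level within family or system; others were chosen after their values were seen. Members and lists were chosen with earlier results of these data known. Scripts were tested on simulated data. Alternatives were another pseudocount (0.25), no filter, plain totals, the replicate block, leaving out each library and the authors' false discovery rate, the last added after seeing the data.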

Additional observations from a re-analysis of the deposited data

Results flagged for a closer look

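Some members had log2 changes of opposite sign in colonocytes and in colonoids under the same ligands. The difference between systems was not tested. Aldh18a1, the enzyme that makes the proline precursor, rose by 0.36 on the log2 scale in colonocytes given TGFB1 with BMP2, and fell in colonoids with a log2 change of -1.29. With TNF present the log2 changes were 0.41 and -1.22. Cyp26b1, a retinoic acid hydroxylase, had log2 changes of 0.92 in colonocytes and -1.87 in colonoids when the ligands were added to TNF. Cyp2j6 had a log2 change of -0.23 in colonocytes (limma adjusted p = 0.127, not called) and of 0.95 in colonoids under the same addition. Cyp26b1 and Cyp2j6 were flagged only with TNF present. Without TNF, Cyp26b1 was not called in colonoids. For Cyp2j6 the interaction term in colonocytes was -0.37 ± 0.14 (SE, limma unadjusted p = 0.0161, not called after adjustment). Neither value was called, so no direction of Cyp2j6 in colonocytes was established. Beside these values, general epithelial markers summed to 33.8 to 45.9 CPM in colonocyte controls and to 9755 to 11996 CPM in colonoid vehicle cultures, and their part in the difference was not tested.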

How the results depend on the processing

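Direction was kept by every called member under every alternative run. Counts of called members stayed within 1.5 times the reported count under the other pseudocount, no filter and plain totals. With the replicate block, TNF called 8 members in colonocytes in place of 1, and 33 in colonoids in place of 1; the block changed no other count by over 1.5 times and lost 1 member in the knockout (Gstt3) and 1 in colonoids with TNF (Aldh6a1). The false discovery rate in the authors' deposited table called 2 members for TNF in colonocytes and 3 for TNF in colonoids. Leaving out 1 library gave 30 to 48 called members for the knockout, 0 to 3 for TNF, 15 to 26 for TGFB1 with BMP2 and 12 to 22 for their addition to TNF in colonocytes, and 0 to 0, 45 to 55 and 44 to 56 in colonoids; 28 of 45 members called in the knockout, 45 of 55 with TGFB1 and BMP2 in colonoids and 11 of 24 in colonocytes kept their call in all 6 such fits. The lowest colonocyte counts were without TGFB1 with BMP2 replicate 1 (15), and without TNF replicate 1 or 2 (12 each); without all 3 ligands replicate 1 the count was 13. Among members named above, Ces1e in the knockout and Ugt1a7c in colonocytes lost their call in 1 such fit (limma adjusted p = 0.052 and 0.0542), and Gstp1 in colonocytes in 4 (up to 0.122). Both interactions stayed at 0 called members. The planned edgeR and DESeq2 tests on recovered reads were not run. In colon the replicate numbers did not pair the libraries, and the block called 6 members higher and 41 lower. Low members such as Cyp4b1 and Cyp26a1 rest on values under 1 CPM in a group, where depth limits the fold.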
